A study of Mus musculus with 6 samples.

Results

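The 10 genes described here are the FoxO factor genes *Foxo1*, *Foxo3* and *Foxo4*, the thioredoxin inhibitor *Txnip*, the superoxide dismutases *Sod1* and *Sod2*, the peroxide-removing enzymes *Cat* and *Gpx1*, and *Nfe2l2* with its target *Hmox1*. They were taken by gene symbol, as genes that control oxidative stress in quiescent hematopoietic stem cells (HSCs). All 10 are among the 34745 genes of the deposited tables, and all 10 are among the 12513 genes with enough counts to be tested. Bulk RNA-seq had been carried out on HSCs of adult C57BL/6 mice, sorted from bone marrow as CD150+CD34-CD48- LSK cells (lineage-negative, Sca1-positive, cKit-positive). The 3 WT samples carry floxed *Med23* alleles, labelled Med23floxp/flowp, without Cre, and the 3 *Med23*-deficient (KO) samples carry the same alleles together with Mx1-cre. Mx1-cre is switched on by interferon and is not confined to HSCs, and the methods describe its induction by injection of poly(I:C). Age is given only as adult, and the description of the RNA-seq does not say whether the WT mice of these libraries were injected too. The question of the comparison is which genes differ in HSCs labelled as *Med23* KO. Med23 is a subunit of the Mediator complex, which links transcription factors to RNA polymerase II.

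FoxO factors are forkhead transcription factors that AKT phosphorylates and so keeps out of the nucleus while growth factor signalling is active. In quiescent HSCs they act in the nucleus and help to hold down reactive oxygen species, and mice without *Foxo3* are known to lose HSC maintenance. Superoxide dismutases convert superoxide into hydrogen peroxide, catalase and glutathione peroxidases remove the peroxide, and NRF2, encoded by *Nfe2l2*, turns on antioxidant genes when KEAP1 no longer marks it for degradation.

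The sample labels name amplification of cDNA with the SMART-Seq v4 kit, whereas the methods name the TruSeq kit, and neither describes molecular identifiers. Values of single libraries are listed in the order of replicates 1, 2 and 3. The depth, as total counts on genes, was 4750410, 8131344 and 3537269 for WT and 4760545, 5281232 and 5132601 for KO. Levels are given as normalized CPM, counts scaled to a common depth with edgeR's TMM factors. The detection limit of 3 counts equals between 0.369 and 0.927 CPM, depending on the library. That limit covers counting error only. *Med23* itself (ENSMUSG00000019984) stood at 47.6, 70.8 and 24.1 CPM in the WT libraries and at 31.6, 29.8 and 36.8 CPM in the KO libraries. WT replicate 3, as labelled, thus had less *Med23* than each KO library, against its label, and for some genes and lists the values without it are also given. The log2 fold change of *Med23*, KO over WT, was -0.54 (standard error, SE, 0.41), or -0.85 when that library is left out and -0.13 when WT replicate 2 is. The groups overlapped for *Med23*, and its difference did not pass edgeR's test (Benjamini-Hochberg adjusted p = 0.989). Counts over the gene thus do not by themselves show the deletion. In a further split that crosses the groups, WT replicate 3 held 1 count and KO replicate 3 held 0 counts over 4 Y-linked genes, whereas each other library held at least 1036. The main edgeR fit has no term for this split, and the replicate number enters only as a block in an alternative fit. Since no label says that the samples come from separate animals, the p-values measure the spread between these samples.

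The HSC label was checked against 12 HSC marker genes, all of which were counted. Their CPM values summed to 3199, 3736 and 3256 in WT and to 3459, 3571 and 3361 in KO, with *Mycn* the most abundant by FPKM. *Kit*, the stem cell factor receptor used in the sort, was at 850.1, 937 and 796 CPM in WT and at 720.2, 693 and 570.0 CPM in KO. *Ly6a*, which encodes Sca1, was at 216, 152 and 205 CPM in WT and at 103, 81.4 and 151 CPM in KO. *Hlf*, a transcription factor of HSCs, was at 208, 259.7 and 376 CPM in WT and at 145, 157 and 178 CPM in KO. Each KO library was below each WT library for these 3 genes. *Mecom*, also an HSC transcription factor, was at 187, 239 and 240.1 CPM in WT and at 416, 339 and 259 CPM in KO, each KO library above each WT library. *Slamf1*, which encodes CD150, was at 96.8 and 90.9 CPM in WT replicates 1 and 2, at 27.5 to 58.2 CPM in KO and lowest in WT replicate 3, through which the groups overlapped. Its log2 fold change was -0.77 (SE 0.52), or -1.19 when WT replicate 3, as labelled, is left out, where it did not pass either, and -0.46 without WT replicate 1. Of the 12 genes 5 had a higher estimate in KO, among them *Meis1* and *Mycn*, and 7 a lower one, and 0 passed edgeR's test with Benjamini-Hochberg adjustment. The groups did not overlap for 4 of the 12, or 33.3%, beside 12.4% of all genes tested. Of the genes whose proteins the gate excludes, *Cd48* was at most 3.44 CPM, but *Cd34* was at 296, 360.1 and 343 CPM in WT and at 519.7, 384 and 414 CPM in KO. *Cd34* RNA was therefore present in each library, and each KO library was above each WT library.

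No difference between the WT and KO libraries was detected for any of the 10 genes. In the quasi-likelihood test of edgeR, with Benjamini-Hochberg adjustment over all 12513 genes, 0 of the 10 passed at an adjusted p under 0.05, where 9 of all genes tested, or 0.0719%, did. At an unadjusted p under 0.05 there were also 0 of the 10, beside 715 of all genes tested. In some alternative fits, such as the replicate block and those on FPKM, there was 1 of the 10. In edgeR's test *Gpx1* had an unadjusted p of 0.0239 without WT replicate 3, and *Txnip* one of 0.0226 without KO replicate 2. DESeq2 called 0 of the 10 and 0.96% of 12500 genes. The WT and KO libraries overlapped for each of the 10, whereas they did not overlap for 12.4% of all genes tested. Among the 10, 5 had a higher and 5 a lower estimate in KO, with a median log2 fold change of 0.03 against -0.01 over all genes tested. With a sample left out, that median of the 10 lay between -0.13, without KO replicate 3, and 0.15, without the library labelled WT replicate 3. The median size of the difference, without its sign, was 0.28 on the log2 scale for the 10 and 0.30 for all genes tested. The 95% confidence intervals still bound these differences. For *Foxo3*, *Txnip*, *Sod2*, *Cat*, *Gpx1* and *Nfe2l2* the interval of the KO over WT ratio lay within 2-fold in either direction, and for *Foxo1*, *Foxo4*, *Sod1* and *Hmox1* it did not. Over 18 alternative fits, none of the 10 passed in any.

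**Figure D1:**
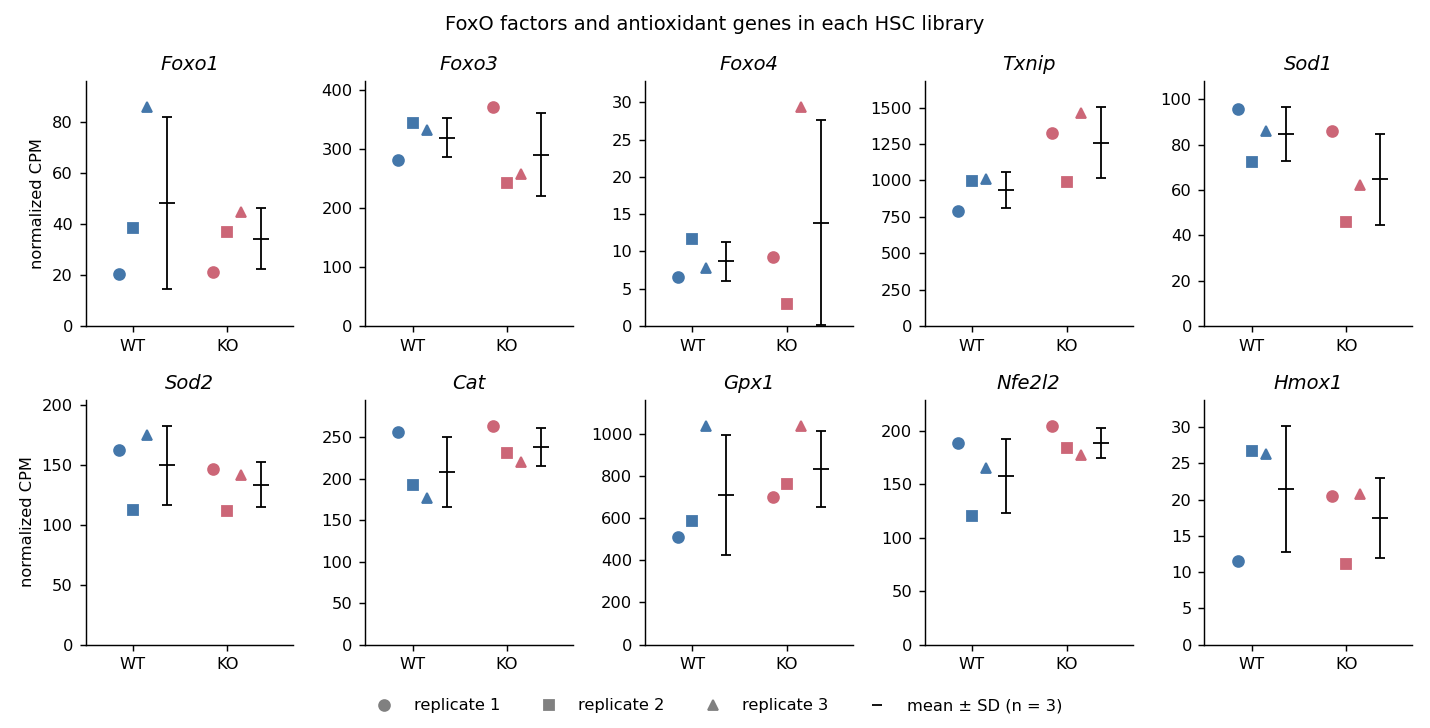
Normalized CPM (vertical axes, from 0) of the 10 genes in the 3 WT (blue) and 3 KO (red) libraries, with symbols for replicates and bars for mean ± SD (n = 3). WT and KO libraries overlap in each panel, and *Foxo4* shows 1 high KO library at 29.3 CPM.

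Among the FoxO genes, *Foxo3* was high in all libraries, whereas the values of *Foxo1* and *Foxo4* turned on single libraries. *Foxo3* (ENSMUSG00000048756, chromosome 10 from 42181841 to 42276755 of GRCm38), the FoxO factor best known for HSC maintenance, was at 282, 344 and 331 CPM in the WT and at 370.3, 242 and 258 CPM in the KO libraries. The highest and the 2 lowest values were all KO libraries, so that the WT values lay inside the KO range. Its mean was 319 ± 32.7 CPM in WT and 290.1 ± 70.0 CPM in KO (SD, n = 3), with a log2 fold change of -0.14 (SE 0.22). The 95% interval of its KO over WT ratio reached from 0.647 to 1.28. Its estimate was negative in each of the 18 alternative fits but changed in size, from -0.35 without KO replicate 1 to -0.02 without KO replicate 2.

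*Foxo1* (ENSMUSG00000044167, chromosome 3 from 52268336 to 52353221), which shares targets with *Foxo3*, was at 20.5, 38.6 and 85.9 CPM in WT and at 21.3, 36.8 and 44.7 CPM in KO. The libraries with the same replicate number were close for replicates 1 and 2, and replicate 3 was the highest of each group. The log2 fold change of *Foxo1* was -0.49 (SE 0.52), and 0.21 without the library labelled WT replicate 3, so its sign turned when only that library was left out. With KO replicate 3 left out too, it was -0.01. *Foxo4* (ENSMUSG00000042903, chromosome X from 101254528 to 101260873), the X-linked family member, was at 6.56, 11.7 and 7.73 CPM in WT and at 9.32, 2.91 and 29.3 CPM in KO. KO libraries held both the lowest and the highest value. The log2 fold change of *Foxo4* was 0.67 (SE 0.80), and -0.50 without KO replicate 3. A list of 13 granulocyte genes was also highest in KO replicate 3, with sums of 9.02, 2.58 and 13.9 CPM in WT and 7.50, 2.73 and 212 CPM in KO. In KO replicate 3, *Mpo* alone was at 175 CPM and *Elane* at 23.3 CPM, whereas *S100a9* was at 3.44 CPM there and at 4.02 CPM in WT replicate 3. *Elane* and *S100a9* were chosen after their values were seen. *Ltf*, *Mmp8* and *Ly6g*, the 3 genes of the list without a count, were at 0 in every library. The part of that library's composition in the *Foxo4* value was not tested.

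Within a library, *Foxo3* took most of the FoxO signal per length. Its FPKM was 86.8, 81.3 and 71.8% of the sum over *Foxo1*, *Foxo3* and *Foxo4* in the WT libraries and 87.9, 81.5 and 66.3% in the KO libraries. Replicate 1 was highest and replicate 3 lowest in both groups. The mean share was 79.9 ± 7.61% in WT and 78.6 ± 11.1% in KO (SD, n = 3; exact two-sided permutation test, p = 1). With 3 samples against 3 that test cannot give a p below 0.1. In WT replicate 3 *Foxo1* supplied 24.1% of the sum, and in KO replicate 3 *Foxo4* supplied 18.9%. The summed FoxO FPKM was 35.1 ± 4.59 in WT and 33.3 ± 5.71 in KO, with overlapping libraries. The tested genes whose pattern over the 6 libraries was nearest to that of *Foxo3* were *Ctso*, *Maf1* and *Xpo5*. Their root mean square differences from *Foxo3*, on centred log2(CPM + 0.5) values, were 0.05, 0.05 and 0.06, against a median of 0.52 over all genes. They were picked as the smallest differences, so their distance from that median follows from the choice.

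*Txnip* (ENSMUSG00000038393, chromosome 3 from 96557957 to 96561883), which binds reduced thioredoxin and limits glucose uptake, was the member closest to the threshold. It was at 792, 998 and 1007 CPM in the WT libraries and at 1327, 987 and 1459.8 CPM in the KO libraries. KO replicates 1 and 3 were above each WT library, and KO replicate 2 lay between the WT values. The mean was 932 ± 122 CPM in WT and 1258 ± 244 CPM in KO (SD, n = 3). The log2 fold change of 0.43 (SE 0.20) did not pass edgeR's test (Benjamini-Hochberg adjusted p = 0.909), with an interval for the ratio from 0.990 to 1.84. Its estimate was positive in each of the 18 alternative fits, between 0.32 and 0.58, and the adjusted p ranged from 0.571 to 1.

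Promoters of 300 bases, spanning the start that RefSeq gives, were found in its table (GRCm38.p6) for 8 of the 10 genes and not for *Foxo4* and *Hmox1*. For *Sod2* that window, from 13007589 on, lies inside the gene as GENCODE annotates it and does not span the start given below. They were searched on both strands for the FoxO core GTAAACA and for the antioxidant response core TGACNNNGC, where N is any base. The FoxO core was found in 1 of the 8 promoters, that of *Txnip*, and in 1199 of 32851 promoters of all genes, or 3.65%. The antioxidant core was found in 2 of the 8, those of *Sod1* and *Nfe2l2*, and in 4071 of all promoters, or 12.4%. The 3 promoters with a match are shown so that the letters can be read in their place, 5′ to 3′ along each gene's own strand, with the matched bases in capitals. The *Txnip* promoter is chr3:96557707-96558006 on the plus strand, and its match begins 121 bases before the start. The *Sod1* promoter is chr16:90220512-90220811 on the plus strand, where the match lies on the opposite strand and begins 56 bases before the start. The *Nfe2l2* promoter is chr2:75704614-75704913 on the minus strand, with a match that begins 240 bases before the start. A match describes letters and was not tested as a binding site. 
Txnip: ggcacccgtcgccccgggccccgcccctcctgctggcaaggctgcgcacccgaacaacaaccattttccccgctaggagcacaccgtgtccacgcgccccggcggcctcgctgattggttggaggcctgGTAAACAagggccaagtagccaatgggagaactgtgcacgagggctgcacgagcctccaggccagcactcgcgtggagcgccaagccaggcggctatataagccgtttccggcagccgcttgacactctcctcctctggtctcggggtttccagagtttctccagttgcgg
Sod1: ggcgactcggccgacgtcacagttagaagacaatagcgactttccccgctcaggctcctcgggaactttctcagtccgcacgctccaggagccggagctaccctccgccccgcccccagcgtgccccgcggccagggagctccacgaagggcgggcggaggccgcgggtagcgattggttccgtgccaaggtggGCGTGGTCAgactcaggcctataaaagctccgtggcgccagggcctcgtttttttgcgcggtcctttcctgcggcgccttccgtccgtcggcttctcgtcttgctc
Nfe2l2: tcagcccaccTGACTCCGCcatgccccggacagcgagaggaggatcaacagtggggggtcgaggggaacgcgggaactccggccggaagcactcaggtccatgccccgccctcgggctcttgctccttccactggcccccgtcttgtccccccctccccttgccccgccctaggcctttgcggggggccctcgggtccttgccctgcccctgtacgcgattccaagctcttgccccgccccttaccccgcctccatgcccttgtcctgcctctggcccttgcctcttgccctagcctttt

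The superoxide dismutases had lower estimates in KO, neither past the threshold. *Sod1* (ENSMUSG00000022982, chromosome 16 from 90220754 to 90226329), the cytosolic enzyme, was at 95.8, 72.4 and 85.9 CPM in WT and at 85.9, 45.9 and 62.3 CPM in KO. KO replicates 2 and 3 were below each WT library, while KO replicate 1 was level with WT replicate 3. The mean of *Sod1* was 84.7 ± 11.7 CPM in WT and 64.7 ± 20.1 CPM in KO (SD, n = 3), with a log2 fold change of -0.39 (SE 0.30), and between -0.64 and -0.19 with each sample left out in turn. *Sod2* (ENSMUSG00000006818, chromosome 17 from 13006846 to 13040063), the mitochondrial enzyme, was at 162, 112 and 174 CPM in WT and at 146, 112 and 141 CPM in KO. Replicate 2 was the lowest library of each group, and the log2 fold change of *Sod2* was -0.16 (SE 0.24). It was -0.04 when the library labelled WT replicate 3 was left out and -0.335 without WT replicate 2. The ratio of *Sod1* to *Sod2* within a library, in FPKM, was 3.50, 3.83 and 2.92 in WT and 3.47, 2.43 and 2.61 in KO. The 2 lowest ratios were KO libraries, KO replicate 1 lay among the WT ratios, and the groups overlapped (exact two-sided permutation test on the log2 ratio, p = 0.2).

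The peroxide-removing enzymes had higher estimates in KO. *Cat* (ENSMUSG00000027187, chromosome 2 from 103453849 to 103485160), the peroxisomal catalase, was at 256, 192 and 176 CPM in WT and at 264, 230.2 and 220.0 CPM in KO. WT replicate 1 was above KO replicates 2 and 3, and the other two WT libraries were below all KO libraries. For *Cat* the log2 fold change was 0.19 (SE 0.21), and lay between 0.09, without the library labelled WT replicate 3, and 0.37, without WT replicate 1. *Gpx1* (ENSMUSG00000063856, chromosome 9 from 108338903 to 108340343), the glutathione peroxidase of cytosol and mitochondria, was at 507, 585 and 1036 CPM in WT and at 699, 760.4 and 1037 CPM in KO. Replicate 3 was the highest of each group and nearly equal between them, and the other KO libraries were above the other WT libraries. The log2 fold change of *Gpx1* was 0.23 (SE 0.28), and 0.61 without the library labelled WT replicate 3, where the Benjamini-Hochberg adjusted p of edgeR was 0.648. It was 0.04 without WT replicate 1, so the size of the difference depended on single WT libraries. Over the alternatives the adjusted p of *Gpx1* ranged from 0.648 to 1.

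*Foxo1* and *Gpx1* were thus both highest in replicate 3 of each group. The same libraries held no more than 1 count of the Y-linked genes. They also had the largest share of counts on the abundant transcripts *Gm26917* and *Gm42418*, at 18.1% in WT replicate 3 and 12% in KO replicate 3, against 7.66 and 10.5% in the other WT libraries and 6.11 and 6.14% in the other KO libraries. The share of counts on mitochondrial genes was largest in these libraries as well, at 0.734% in WT replicate 3 and 0.582% in KO replicate 3. It was 0.373 and 0.378% in the other WT libraries and 0.314 and 0.199% in the other KO libraries. Erythroid marker genes summed to 131 CPM in WT replicate 3 and 75.3 CPM in KO replicate 3. They summed to 53.7 and 54.8 CPM in the other WT and 42.3 and 36.9 CPM in the other KO libraries. Whether these features account for the *Foxo1* and *Gpx1* values was not tested. With replicates 1 and 2 alone, an alternative chosen after seeing the data, the log2 fold change of *Foxo1* was -0.01 and that of *Gpx1* was 0.43.

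*Nfe2l2* (ENSMUSG00000015839, chromosome 2 from 75675513 to 75704641), whose product NRF2 is the main activator of antioxidant genes, was at 188, 119.9 and 166 CPM in WT and at 205, 184 and 178 CPM in KO. KO replicate 1 was the highest library, WT replicate 2 the lowest, and WT replicate 1 lay inside the KO range. The mean of *Nfe2l2* was 158 ± 34.9 CPM in WT and 189 ± 14.2 CPM in KO (SD, n = 3), with a log2 fold change of 0.26 (SE 0.23), and between 0.09 and 0.41 with each sample left out in turn. *Hmox1* (ENSMUSG00000005413, chromosome 8 from 75093621 to 75100589), the inducible haem oxygenase and a target of NRF2, was at 11.5, 26.8 and 26.3 CPM in WT and at 20.5, 11.1 and 20.8 CPM in KO. Each group had 1 library far below its other two, and the log2 fold change of *Hmox1* was -0.30 (SE 0.50), or -0.14 without the library labelled WT replicate 3. With other samples left out it reached from -0.60, without WT replicate 1, to -0.06, without KO replicate 2. The estimates of factor and target thus had opposite signs, with neither detectable at this depth and spread.

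**Figure D2:**
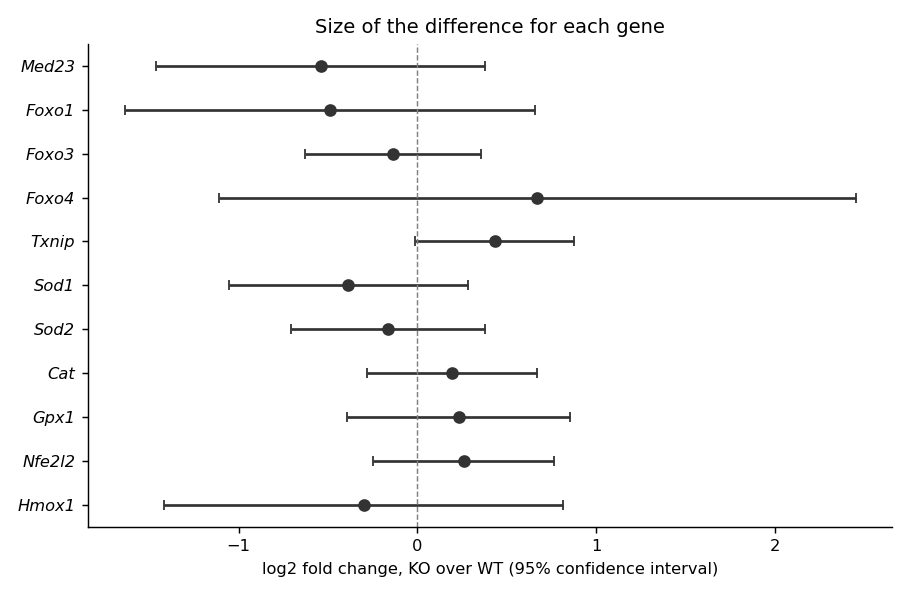
Log2 fold change, KO over WT (horizontal axis), of *Med23* and the 10 genes from the edgeR fit of 3 WT and 3 KO libraries, as points with 95% confidence intervals. Each interval includes 0, and that of *Foxo4* is the widest, from -1.11 to 2.45.

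Levels can be compared between genes only per length, and the order then depends on the length used. In the deposited FPKM, averaged over the 6 libraries, the order was *Gpx1* (223), *Txnip* (158), *Sod1* (115), *Cat* (71.2), *Nfe2l2* (44.2), *Sod2* (36.7), *Foxo3* (27.1), *Hmox1* (6.95), *Foxo1* (4.65) and *Foxo4* (2.47). Between neighbours in that order the ranges over the libraries overlapped, except for *Foxo3* and *Hmox1*. *Foxo3* was above *Hmox1* in 6 of 6 libraries, by a mean of 4.21 ± 1.30-fold (SD, n = 6). The lengths behind the deposited FPKM were recovered from counts and FPKM. For 18944 genes they were compared with the GENCODE M21 annotation, within 2%. They were equal to the summed lengths of all distinct annotated exons for 74.7% of these genes and to the length of the merged exons for 25.1%. These shares overlap, since both held for 23.9%, only the summed exons for 50.8%, only the merged exons for 1.19% and neither for 24.1%. Where exons of several transcripts overlap, the same bases are counted repeatedly in such a sum. For *Txnip* the recovered length was 6915 bases, against 3123 of merged exons and 2795 in the principal transcript. For *Gpx1* it was 3412 bases, against 1441 and 1072. For *Sod1* it was 646 bases, close to the principal transcript of 641 but far from the 3970 merged and 4313 summed bases. *Sod2* and *Hmox1* matched none of the 3 lengths: 3824 bases for *Sod2*, against 10008 merged and 12873 summed, and 2769 for *Hmox1*, against 1751 and 2343.

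With the principal transcript as length, the means in counts per kilobase and per total counts, scaled as FPKM is, were 710.3 for *Gpx1*, 390.1 for *Txnip*, 116 for *Sod1*, 85.5 for *Cat*, 70.0 for *Nfe2l2*, 44.3 for *Foxo3* and 23.9 for *Sod2*. *Foxo3* was then above *Sod2* in 6 of 6 libraries, with ranges that did not overlap, whereas in the deposited FPKM *Sod2* was above *Foxo3* in 5 of 6. With merged exons *Sod1* was at 18.7 and stood below *Cat*, *Nfe2l2* and *Foxo3*. *Gpx1* and *Txnip* were the highest and *Hmox1*, *Foxo1* and *Foxo4* the lowest with each of the 3 lengths. The share of *Foxo3* in the FoxO signal lay between 66.3 and 87.9% in the deposited FPKM, between 71.5 and 90.5% with merged exons and between 72.3 and 90.9% with principal transcripts. The ratio of *Sod1* to *Sod2* was between 2.43 and 3.83 in the deposited FPKM, but between 1.04 and 1.63 with merged exons and between 3.76 and 5.92 with principal transcripts. Both other lengths were chosen after seeing the data.

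**Figure D3:**
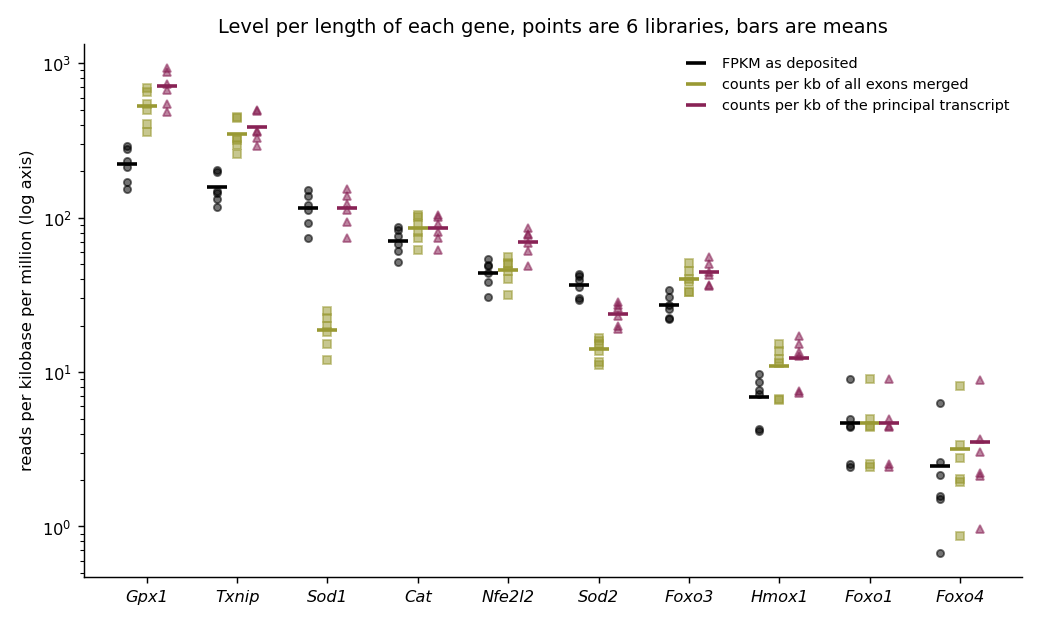
Level per length of the 10 genes (vertical log axis, scaled as FPKM) with 3 lengths: FPKM as deposited, merged exons and principal transcript. Points are the 6 libraries and bars their means; *Sod1* is at 115 in the deposited FPKM and at 18.7 with merged exons.

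The pathway around the 10 genes was read from 6 lists of other genes, of which 130 were tested when each is counted once. With edgeR and Benjamini-Hochberg adjustment 0 of the 130 passed, and with DESeq2 0 passed as well. At an unadjusted p under 0.05 there were 3 higher and 4 lower genes of the 130, beside 715 of all 12513 genes. The WT and KO libraries did not overlap for 21 of the 130, or 16.2%, with 9 above and 12 below WT in KO, beside 12.4% of all genes tested. The median log2 fold change was -0.03, against -0.01 over all genes tested. The genes named from these lists are those with the largest differences among genes whose groups did not overlap, and the most abundant gene of each list by FPKM, so that their lack of overlap follows from the choice.

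Of 29 regulators upstream of the FoxO factors, such as PI3K, AKT and 14-3-3 genes, 19 had a higher and 10 a lower estimate in KO, with a median log2 fold change of 0.16. Over the alternative fits that median lay between 0.05, without WT replicate 1 and with 16 higher and 13 lower estimates, and 0.21, and it was 0.09 without the library labelled WT replicate 3. *Mtor*, the kinase of the mTOR complexes, was at 123, 116 and 146 CPM in WT and at 197, 198 and 187 CPM in KO. Each KO library was above each WT library, and the log2 fold change of *Mtor* was 0.60 (SE 0.20, edgeR adjusted p = 0.676 after Benjamini-Hochberg adjustment). *Sirt1*, a deacetylase that acts on FoxO proteins, was at 5.33, 3.44 and 4.02 CPM in WT and at 11.5, 10.7 and 11.5 CPM in KO (log2 fold change 1.40, SE 0.68). The summed CPM of the list, 3805, 3992 and 3648 in WT and 4351, 4169 and 4017 in KO, did not overlap between the groups (exact two-sided permutation test, p = 0.1, the lowest it can give). In summed FPKM the groups did overlap, with KO replicate 3 at 591 and WT replicates 1 and 2 at 604 and 618. *Pik3r1*, the regulatory subunit of PI3K, had a log2 fold change of 0.28 (SE 0.18), and *Sirt3*, a mitochondrial deacetylase, one of -0.21 (SE 0.20). *Ywhae*, a 14-3-3 protein gene and the most abundant of the list, had a log2 fold change of 0.16 (SE 0.18). When WT replicate 3, as labelled, is left out, *Sirt3* was at -0.14 and *Ywhae* at 0.09.

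Of 24 tested genes described as FoxO targets, 17 had a higher and 7 a lower estimate, with a median of 0.25. The list was not divided into genes that FoxO factors raise or lower, so these signs do not measure FoxO activity. The median depended on single libraries: it was 0.07 without KO replicate 3, with 13 higher and 11 lower estimates, 0.10 without WT replicate 1, and 0.39 without the library labelled WT replicate 3. *Sesn1*, a sestrin that restrains mTORC1, was at 199, 199.6 and 194 CPM in WT and at 308, 300.1 and 245 CPM in KO. The log2 fold change was 0.53 (SE 0.19, Benjamini-Hochberg adjusted p of edgeR 0.738). *Pik3ip1*, an inhibitor of PI3K, was at 314, 329.6 and 399.6 CPM in WT and at 231, 230.2 and 286 CPM in KO (log2 fold change -0.48, SE 0.20). Both genes separated the groups, in opposite directions. *Gadd45b*, a stress-response gene, had a log2 fold change of 1.29 (SE 0.67). *Cited2*, a transcriptional coregulator and the most abundant of the list, was at 125, 211 and 385 CPM in WT and at 282, 525 and 620.4 CPM in KO. Replicate 3 was highest in each group, and the log2 fold change of *Cited2* was 0.99 (SE 0.40). When WT replicate 3, as labelled, is left out, both estimates lay further from 0, at 1.84 for *Gadd45b* and 1.5 for *Cited2*, and neither passed. With other samples left out the lowest estimates were 1.01 for *Gadd45b*, without WT replicate 2, and 0.68 for *Cited2*, without WT replicate 1. The FoxO core was present in 4 of 26 promoters of this list, or 15.4%, beside 3.65% of all promoters.

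Of 29 NRF2 partners and targets, 14 had a higher and 15 a lower estimate, with a median of -0.04, which lay between -0.07 and 0.03 over the alternative fits and so had no fixed sign. *Maff*, a small MAF partner of NRF2, was at 13.3, 18.9 and 30.9 CPM in WT and at 10.1, 12.6 and 5.26 CPM in KO (log2 fold change -1.17, SE 0.56). *Srxn1*, which reduces overoxidized peroxiredoxins, was at 23.8, 34.8 and 30.9 CPM in WT and at 22.7, 20.6 and 2.63 CPM in KO. KO replicate 3 was far below the rest, and the log2 fold change of *Srxn1* was -0.96 (SE 0.66), or -0.46 without that library. *Abcc1*, an export pump for glutathione conjugates, had one of 0.62 (SE 0.30). Without WT replicate 2 the estimate of *Abcc1* was 0.455, and without KO replicate 2 that of *Maff* was -1.44. When WT replicate 3, as labelled, is left out, the estimates were -0.79 for *Maff* and 0.98 for *Abcc1*. *Fth1*, the ferritin heavy chain and the most abundant of the list, had a log2 fold change of -0.08 (SE 0.17), or -0.01 without that library. The antioxidant core was present in 11 of 37 promoters of this list, or 29.7%, beside 12.4% of all promoters. In the other lists its share was 22.2% for thioredoxin and peroxiredoxin genes, 15.8% for superoxide, haem and iron genes, 15.4% for FoxO targets, 9.76% for upstream regulators and 9.68% for the glutathione system. The share with the FoxO core was at most 4.88% in each list other than the FoxO targets.

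In the glutathione system, 3 of 23 tested genes had a higher and 20 a lower estimate, with a median of -0.27. Over the alternative fits that median lay between -0.39 and -0.15, and it was -0.20 when the library labelled WT replicate 3 was left out, with 6 higher and 17 lower estimates. *Gstt1*, a glutathione transferase, was at 19.7, 11.3 and 24.1 CPM in WT and at 7.29, 3.82 and 2.23 CPM in KO. Each KO library was below each WT library, and the log2 fold change was -2.04 (SE 0.67, edgeR Benjamini-Hochberg adjusted p = 0.64). The transferases *Gsta4* and *Gstm5* had log2 fold changes of -1.14 (SE 0.58) and -0.54 (SE 0.34), and *Gss*, glutathione synthetase, one of -0.49 (SE 0.35). *Gstm1*, the most abundant of the list, was at 228, 280.4 and 262 CPM in WT and at 224, 276 and 249.7 CPM in KO, with overlapping libraries (log2 fold change -0.04, SE 0.20). The summed CPM of the glutathione list, 1182, 1398 and 1514 in WT and 967, 1265 and 1280.5 in KO, overlapped between the groups, as did those of the other pathway lists except the upstream regulators. That exception held in CPM and not in FPKM. Of the 23 genes, 6 are also in the NRF2 list.

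Of 26 thioredoxin and peroxiredoxin genes, 9 had a higher and 17 a lower estimate, with a median of -0.08. Over the alternative fits that median lay between -0.15 and -0.01, with 13 higher and 13 lower estimates in the fits on FPKM. *Prdx6*, a peroxiredoxin, was at 655, 626 and 750.1 CPM in WT and at 526, 535 and 515 CPM in KO (log2 fold change -0.37, SE 0.17). *Msra*, a methionine sulfoxide reductase, had a log2 fold change of 0.46 (SE 0.24). *Txn1*, the thioredoxin bound by the *Txnip* product and the most abundant of the list, had one of -0.19 (SE 0.25), or -0.02 without the library labelled WT replicate 3 and -0.37 without KO replicate 3. Of 13 other tested genes of superoxide, haem and iron handling, 5 had a higher and 8 a lower estimate, with a median of -0.08, which lay between -0.22 and 0.02 over the alternative fits. *Alad*, an enzyme of haem synthesis, had a log2 fold change of -0.71 (SE 0.32), with each KO library below each WT library.

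**Figure D4:**
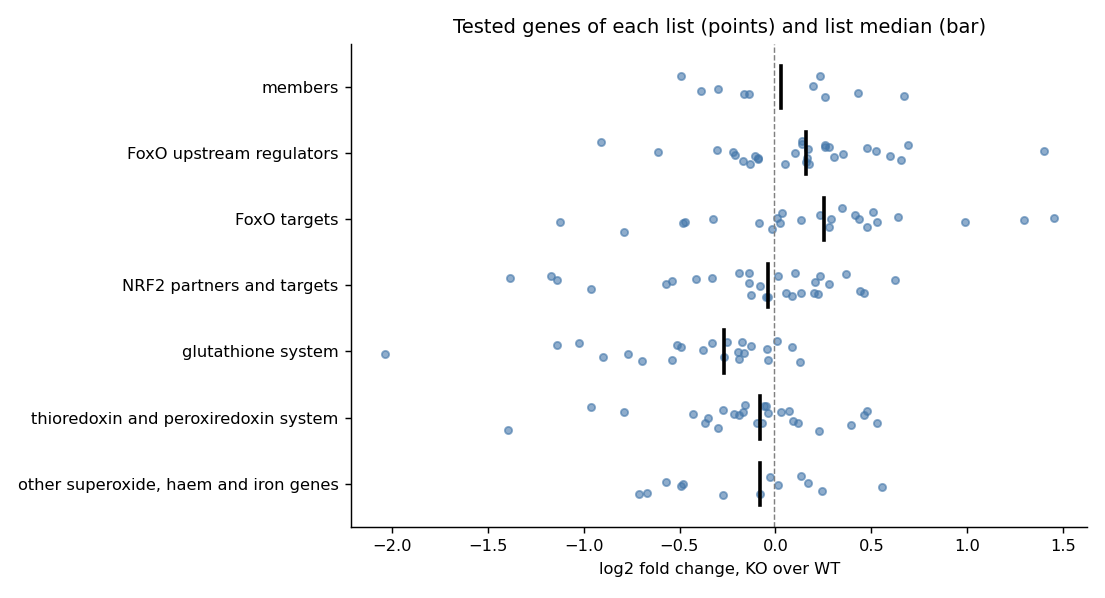
Log2 fold change, KO over WT (horizontal axis), of each tested gene (points) in the 10 genes and 6 pathway lists, with the list's median as a bar. The glutathione list has its median at -0.27 and the FoxO targets at 0.25, and no point passed the edgeR test.

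Markers of other cells moved between the libraries as well. Of 17 skeletal muscle genes, 15 were tested and all 15 had a lower estimate in KO, and 3 passed the edgeR test with Benjamini-Hochberg adjustment, *Acta1*, *Actc1* and *Myh3*. Their summed CPM was 273, 190.5 and 485 in WT and 10.5, 36.4 and 8.30 in KO, with *Acta1* the most abundant by FPKM. These calls depended on the fit: none of the 3 genes passed with voom, and *Actc1* did not pass with the replicate number as a block or when any library except WT replicate 2 was left out. With replicates 1 and 2 alone neither *Acta1* nor *Actc1* passed, and *Myh3* did not pass with log2(FPKM + 1) values and no filter. The counts themselves stay far apart: *Actc1* and *Myh3* were at 0 in every KO library, with at least 104 and 283 counts in each WT library. The groups did not overlap for 14 of the 15 tested genes, beside 12.4% of all genes tested. Platelet genes summed to 302, 181 and 224 CPM in WT and to 418, 331 and 363 CPM in KO, with *Gp9* the most abundant and no gene at 0 throughout. Of the 7 platelet genes, 5 had a higher and 2 a lower estimate in KO, and the groups did not overlap for 3. The sums of the muscle and platelet lists separated the groups, in opposite directions. Macrophage genes (43.1, 66.4 and 143 CPM in WT, 96.2, 42.8 and 85.4 CPM in KO, *C1qa* the most abundant) overlapped between the groups. So did stromal and endothelial genes (89.0, 131 and 179.6 CPM in WT, 176, 178 and 153 CPM in KO, *Pecam1*). Lymphoid genes (53.9, 60.1 and 72.3 CPM in WT, 53.7, 66.1 and 73.5 CPM in KO, *Cd79b*) had 4 of 8 at 0 in every library. Erythroid genes, with *Hbb-bt* the most abundant, had 1 of 12 at 0 in every library and sums that overlapped. Of the 5 erythroid genes tested, 1 had a higher and 4 a lower estimate in KO, with a median log2 fold change of -0.84. For 2 of the 5 each KO library was below each WT library, where 12.4% of all genes tested did not overlap in either direction. The methods describe a lineage gate with antibodies to granulocyte, erythroid, B cell and T cell markers, and a repeated sort for the RNA-seq. The part of these genes' source cells in the antioxidant values was not tested, and in bulk RNA fewer cells of a type and less RNA per cell cannot be told apart.

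**Figure D5:**
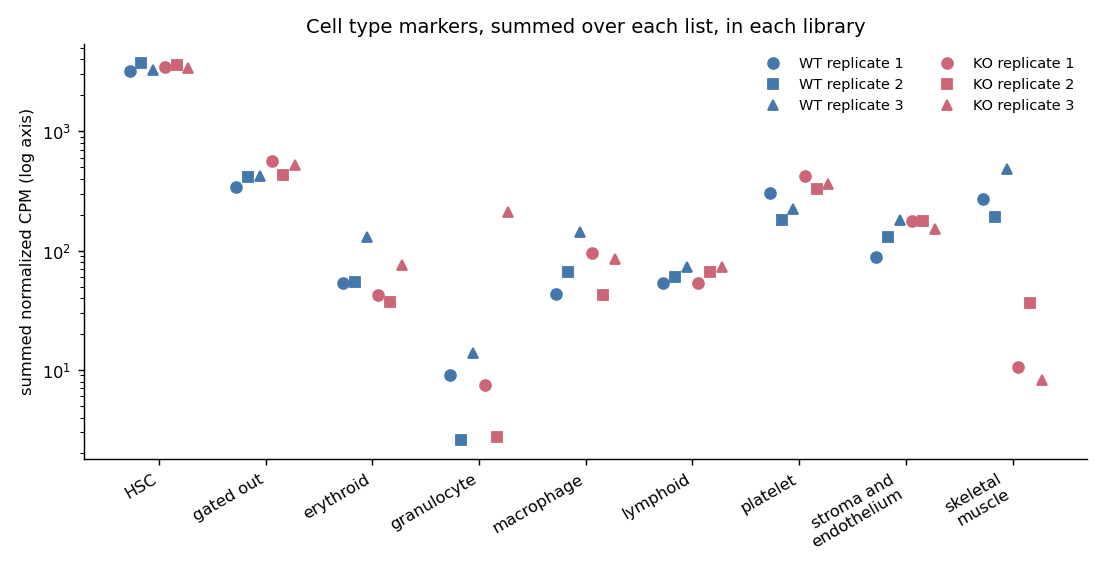
Summed normalized CPM (vertical log axis) of 9 marker lists in the 3 WT (blue) and 3 KO (red) libraries, with symbols for replicates. The skeletal muscle sum is at most 36.4 CPM in KO and at least 190.5 CPM in WT, and the granulocyte sum reaches 212 CPM in KO replicate 3.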

How the data were processed

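RNA of 3 WT and 3 KO samples of sorted HSCs was sequenced. The authors deposited raw counts of reads on each gene. They also deposited FPKM, in which each value is the count over a fixed length of the gene and over the library's total, to within 0.0703%. The submitters' notes name TopHat, HTSeq and mm10 without versions. Samples were grouped by their labels. Tests on the counts used edgeR 4.0.16 under R 4.3.3 (filterByExpr, TMM, robust quasi-likelihood test, Benjamini-Hochberg adjustment at 0.05 over all genes tested). The standard error is the size of the log2 fold change over the square root of F. Single values were compared with exact two-sided permutation tests. DESeq2 1.42.0, limma 3.58.1 on FPKM and with voom, other scalings and filters, a replicate block and each sample left out in turn were alternatives. Coordinates are from GENCODE M21, which held 34267 of 34745 gene identifiers, and promoters from RefSeq.

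The genes named are *Med23*, the 10 genes, list genes past the threshold, HSC and gate markers and the 3 genes nearest to *Foxo3*. From each pathway list came up to 4 genes with the largest difference, among genes that average 20 counts or more and whose groups did not overlap, and the most abundant gene. From each other marker list came the most abundant gene. *Gm26917*, *Gm42418*, the Y-linked genes and the granulocyte genes named beside *Mpo* are outside this rule and were picked with their values in view. The 10 genes and the lists were chosen with earlier results of these data known.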

Additional observations from a re-analysis of the deposited data

How the results depend on the processing

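Over 18 alternative fits, 16 planned and 2 chosen after seeing the data, the log2 fold changes of the 10 genes kept their direction in 176 of 180 comparisons and reversed in 4, and none of the 10 passed the threshold in any of them. *Foxo4* was at -0.294 with voom and at -0.57 with replicates 1 and 2 only, and between -0.50 and 1.15 with each sample left out in turn. *Foxo1* was between -0.85 and 0.21. The number of genes that differed, 9, was 120 with DESeq2, 15 with log2(FPKM + 1) and a filter, 0 with voom and between 5 and 11 with a sample left out. With the replicate number as a block it was 5, and the lowest adjusted p of the 10 genes was 0.571, for *Txnip*. The median of the superoxide, haem and iron list was between -0.221 and -0.0485 with a sample left out, and the KO minus WT difference in the *Foxo3* share, -1.36 points, between -6.04 and 4.79. That list's median turned positive in 3 fits, at 0.0127 with the replicate block and up to 0.0178 with log2(FPKM + 0.1). The NRF2 median turned positive in 4, up to 0.0278 without WT replicate 2. Of 108 list medians 107 stayed within the spread of the list, these small changes of sign included; the exception was the superoxide, haem and iron list without KO replicate 1, at -0.221.

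Of 872 comparisons for 49 other named genes, 844 kept direction and call, 12 lost the call (all *Acta1*, *Actc1* or *Myh3*) and 16 reversed. *Gstm1* reversed to 0.00755 with log2(FPKM + 1), filtered or not, and to 0.00761 with log2(FPKM + 0.1). *C1qa* was at 0.51 with log2(FPKM + 0.1) and at 0.0423 with voom. With replicates 1 and 2 only, *Flt3* was at -0.0352 and *Mpo* at -0.16. With a sample left out, *Gstm1* lay between -0.117 and 0.0357, *C1qa* between -1.68 and -0.30, *Ctnnal1* between -0.969 and 0.0214, *Cd79b* between -0.0164 and 0.364, *Hoxb5* between -0.27 and 0.16, *Flt3* between -0.35 and 0.50, *Hbb-bt* between -0.20 and 0.51 and *Mpo* between 0.38 and 11.3. The cause of these changes was not tested, beyond the fewer samples of a left-out fit.

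With 3 samples a group, the 95% interval of the *Foxo4* ratio reached from 0.463 to 5.48, so that its difference was bounded only loosely. Counts over a gene do not tell its transcripts apart, and RNA levels say nothing of the location of FoxO proteins or of reactive oxygen species, which were not measured.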
